A study of Homo sapiens with 9 samples.

Results

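The peaks described here are RNA polymerase II (RNAPII) peaks on human chromosome 19 that lie outside the zinc finger genes of that chromosome. They were taken from 5 lists of RNAPII chromatin immunoprecipitation (ChIP-seq) peaks by position alone: every peak on chromosome 19 was kept unless it overlapped a protein-coding gene whose symbol is ZNF followed by a number. In this way 406 peaks were kept upon control shRNA, 1152 upon shRNA5, 986 upon shRNA7, 3306 in uninduced T-REx cells (no doxycycline) and 2174 in induced ones (doxycycline), 8024 of the 142069 peaks in all 5 lists. Overlap with a ZNF gene removed 20.1% of the chromosome 19 peaks upon control shRNA, 23.2% upon shRNA5, 32.4% upon shRNA7, 14.5% in uninduced and 18.1% in induced cells. The same exclusion was applied to the 21 other autosomes, which serve as the reference. Peaks that were called in each library chose the members, so their numbers are given as a description.

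Chromosome 19 is the most gene-dense human chromosome, rich in short housekeeping genes, in GC bases and in Alu repeats, and it carries large arrays of KRAB zinc finger genes as well as clusters of kallikrein, pregnancy-specific glycoprotein, immunoglobulin-like receptor and cytochrome P450 genes. RNAPII starts transcription at promoters, where it often pauses before it elongates through the gene body, so that ChIP-seq peaks cluster at transcription start sites (TSS) and thin out along genes. RECQL5 is a DNA helicase of the RecQ family that binds RNAPII. In the GRCh37 annotation used here, chromosome 19 held 1231 protein-coding genes outside ZNF symbols over 55.8 Mb of sequenced bases, which is 22.1 genes per Mb against 6.66 on the other autosomes. The median gene was 13.8 kb long on chromosome 19 and 29.5 kb elsewhere. Bases A and T made up 51.6% of the chromosome and 59.2% of the other autosomes.

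The hairpin lists came from HEK293 cells, a human embryonic kidney line, carrying a lentiviral control shRNA or one of the hairpins against RECQL5, shRNA5 or shRNA7. The doxycycline lists came from HEK293 T-REx cells, in which full-length RECQL5 on the pcDNA4/TO plasmid is switched on by doxycycline, grown at 0.0 ng/ml or 1.0 ng/ml, so that the uninduced cells carry the plasmid too. Peaks had been called against 4 libraries made with non-specific IgG, of which a single library from untreated cells served both doxycycline lists. Each condition was 1 library, so no difference below has a replicate check or a p-value, and both hairpin comparisons share the control list.

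The study's methods describe similar read totals for the libraries compared within each arm, larger in the hairpin arm than in the doxycycline arm. Exact totals per library are not in the peak lists, and tags inside peaks ranged from 842310 (control shRNA) to 6698771 (shRNA7) over all peaks of a list. The hairpin lists used here are shorter than the numbers of called peaks that the methods describe, most of all for the control in relative terms. What the peaks not analysed here would change in the folds and overlaps was not tested. The lowest deposited significance score was 50 in each list, and the highest false discovery rate (FDR) ranged from 1.09% without doxycycline to 19.6% upon shRNA7. LIN28B, which HEK293 cells express, carried a promoter peak in 5 of 5 lists, with 106 to 687 tags. PAX2, a kidney lineage gene, had a promoter peak of 18 tags in the no doxycycline list only. No list had a peak on PTPRC (blood cells), ALB (liver) or CD3E (T cells). On RECQL5 itself, which lies on chromosome 17, promoter peaks held 0, 0 and 280 tags upon control shRNA, shRNA5 and shRNA7, and 983 and 1290 tags without and with doxycycline. RNAPII on the gene does not measure the depletion of its product.

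To show what lies under the densest members, the 121 bases of GRCh37 (plus strand) centred on the summit are given for peaks that had the most tags per kb of their class among those whose window touches no annotated untranslated region. CG dinucleotides are in capitals.
no doxycycline, promoter-proximal peak of PSMC4, chr19:40476758-40476878: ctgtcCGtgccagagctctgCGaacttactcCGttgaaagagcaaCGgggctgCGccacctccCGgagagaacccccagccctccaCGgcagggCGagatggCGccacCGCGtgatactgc
shRNA7, gene-body peak in PTPRS, chr19:5309124-5309244: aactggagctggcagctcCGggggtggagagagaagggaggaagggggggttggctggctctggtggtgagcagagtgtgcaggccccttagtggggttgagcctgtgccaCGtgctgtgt
no doxycycline, gene-body peak in PTPRS, chr19:5309070-5309190: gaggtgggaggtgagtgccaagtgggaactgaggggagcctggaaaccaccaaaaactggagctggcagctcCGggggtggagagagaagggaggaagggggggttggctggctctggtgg
shRNA7, peak near a coding gene, in PSG11-AS1, chr19:43592970-43593090: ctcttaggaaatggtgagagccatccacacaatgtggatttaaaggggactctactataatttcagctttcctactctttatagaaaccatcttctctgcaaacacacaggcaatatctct
shRNA7, peak distant from coding genes, chr19:43779930-43780050: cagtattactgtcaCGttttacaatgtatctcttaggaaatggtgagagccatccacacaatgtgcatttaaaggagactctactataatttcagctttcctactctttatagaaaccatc

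The PSMC4 window (PSMC4 encodes a proteasome ATPase) held 11 CG dinucleotides and 33.9% A and T, and the other windows printed held 0 to 2. The PSMC4 peak was number 15 of its class by tags per kb, and denser ones were passed over. The promoter-proximal window chosen in the same way upon shRNA7, not printed, held 1 CG dinucleotide and 56.2% A and T. Another window not printed, that of the densest peak near a coding gene without doxycycline, held 10 CG dinucleotides and 32.2% A and T. A window rich in CG was thus neither particular to promoters nor found at both promoter peaks chosen. The gene-body windows of both arms overlap within PTPRS, a receptor tyrosine phosphatase gene. The shRNA7 peak had 281 tags with its summit at 5309184 and the no doxycycline peak had 346 tags with its summit at 5309130. The last 2 windows come from separate peaks of 238 and 366 tags. The first lies within the pregnancy-specific glycoprotein (PSG) cluster and the second beyond PSG9, the last listed gene of that cluster. An ungapped alignment of both windows matched 90 of 92 overlapping bases. Members in such near-identical copies are uncertain, because the placement of reads among the copies is not recorded in the peak lists.

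**Figure D1:**
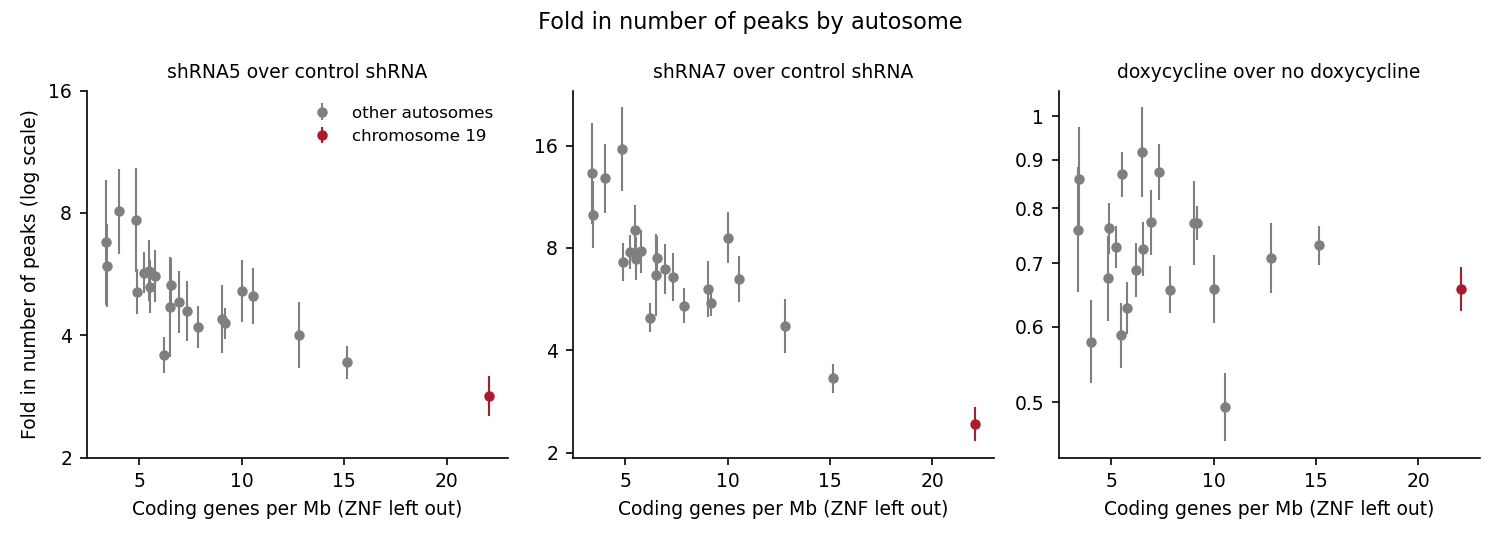
Fold in number of peaks outside ZNF genes on each of 22 autosomes (y axis, log scale) against protein-coding genes per Mb (x axis), 1 panel per comparison, with bars for the 95% counting interval. Chromosome 19, in red at 22.1 genes per Mb, sits lowest for both hairpins (2.84 and 2.43) and within the other autosomes upon doxycycline (0.658).

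Members multiplied upon RECQL5 depletion, but less than peaks elsewhere. The number of members rose 2.84-fold upon shRNA5 (95% interval 2.53 to 3.18), against 4.69-fold on the other autosomes. Upon shRNA7 it rose 2.43-fold (2.16 to 2.73), against 6.45-fold. The ratio of these folds, chromosome 19 over the rest, was 0.605 (0.538 to 0.680) for shRNA5 and 0.376 (0.334 to 0.424) for shRNA7. These intervals cover counting error only. Upon shRNA7 the chromosome held fewer members than upon shRNA5 (0.856 times, 0.786 to 0.932), while the other autosomes together held 1.37 times as many. Chromosome 17, the next in gene density, also held fewer peaks upon shRNA7 (1780) than upon shRNA5 (1846).

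Among 22 autosomes, chromosome 19 had the lowest fold with both hairpins. Folds on the autosomes ranged from 2.84 to 8.08 upon shRNA5 and from 2.43 to 15.6 upon shRNA7, and they fell as gene density rose. As a description over 22 autosomes that share the same libraries, the log2 fold correlated with genes per Mb with r = -0.79 (rho = -0.82) for shRNA5 and r = -0.84 (rho = -0.81) for shRNA7. Without chromosome 19 the values of r were -0.72 and -0.77. Chromosome 19 thus lay at the end of a relation that the other 21 autosomes also showed.

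Upon doxycycline the number of members fell to 0.658 of that without it (0.623 to 0.694), against 0.722 elsewhere, a ratio of 0.911 (0.861 to 0.963). In this arm 15 autosomes had a higher fold than chromosome 19, and r with gene density was -0.19. At a fold enrichment of at least 10 the doxycycline ratio was 1.07.

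The rise in number itself depended on which peaks were counted, whereas its lag behind the other autosomes did not turn. At a fold enrichment of at least 10 the chromosome 19 folds were 0.994 for shRNA5 and 0.803 for shRNA7. In lists cut to equal length by significance score they were 0.734 and 0.495. Equal lengths leave no rise over all autosomes, so the latter folds only restate the lower share of chromosome 19. Over the alternatives tried the ratio to the other autosomes lay between 0.600 and 0.749 for shRNA5 and between 0.372 and 0.497 for shRNA7.

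The share of autosomal peaks on chromosome 19 was 8.22% upon control shRNA (7.49 to 9.02), 5.14% upon shRNA5 (4.86 to 5.44) and 3.26% upon shRNA7 (3.07 to 3.47). Without doxycycline it was 7.42% (7.18 to 7.66) and with doxycycline 6.80% (6.53 to 7.08). Chromosome 19 carries 6.57% of autosomal coding genes and 2.08% of sequenced bases. The control and no doxycycline lists were above the share of genes, both knock-down lists were below it, and the interval with doxycycline held it. With peaks under 1 kb apart merged, the shares without and with doxycycline were 6.15% and 5.90%, below the share of genes. Per coding gene, 0.330 members upon control shRNA stood against 0.259 peaks elsewhere. Upon shRNA5 the values were 0.936 and 1.22, and upon shRNA7 0.801 and 1.67, the lowest of 22 autosomes.

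Members upon shRNA7 were fewer but covered more bases. Members covered 1.18 Mb upon control shRNA, 3.52 Mb upon shRNA5 and 4.78 Mb upon shRNA7, so that covered length rose 2.97-fold and 4.04-fold, against 4.71-fold and 7.86-fold elsewhere. Tags within members rose 3.36-fold and 5.25-fold, against 4.73-fold and 8.47-fold. The lag behind the other autosomes was therefore present in numbers, length and tags. In the doxycycline arm covered length fell to 0.767 (0.801 elsewhere) and tags stood at 1.06 times those without the drug, both on chromosome 19 and elsewhere.

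**Figure D2:**
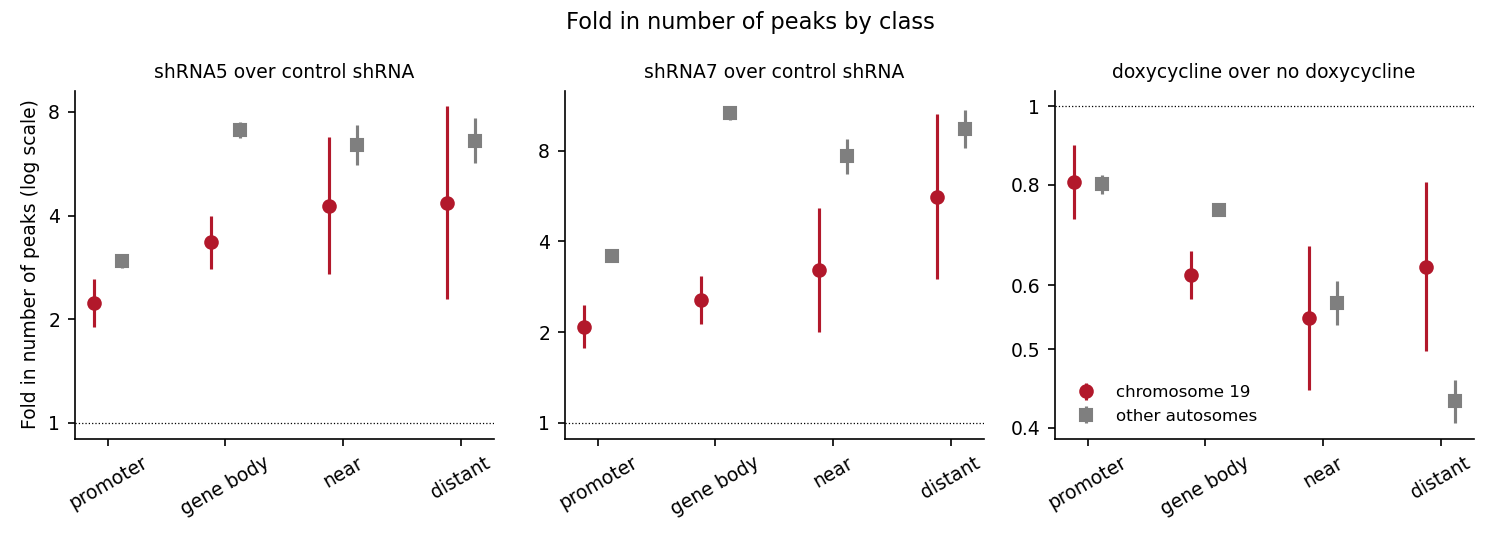
Fold in number of peaks (y axis, log scale) for 4 classes of peaks, on chromosome 19 (red circles) and the other autosomes (grey squares), with 95% counting intervals and a dotted line at 1. The classes part most in gene bodies upon shRNA7, where the fold is 2.56 on chromosome 19 and 10.7 elsewhere.

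Peaks were sorted by where they lie. A promoter-proximal peak touches the 500 bp on either side of the TSS of a protein-coding transcript, a gene-body peak touches the rest of such a transcript, a near peak lies within 5 kb of a coding gene, and a distant peak is farther away. Promoter windows made up 5.03% of chromosome 19 outside ZNF genes and 1.33% elsewhere, gene bodies 47.7% and 43.2%, and near regions 14.6% and 5.43%.

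With all peaks counted, gene bodies were where chromosome 19 lagged most. Gene-body members rose from 160 to 535 upon shRNA5, 3.34-fold against 7.09-fold elsewhere, and to 409 upon shRNA7, 2.56-fold against 10.7-fold. The ratios of these folds were 0.472 (0.392 to 0.567) and 0.240 (0.198 to 0.290). Promoter-proximal members rose from 213 to 475 and 444, with ratios to the other autosomes of 0.757 (0.640 to 0.895) and 0.583 (0.492 to 0.690). Near members numbered 22, 94 and 71 and distant members 11, 48 and 62, and for distant members the intervals of the ratio held 1 for both hairpins. At a fold enrichment of at least 10, gene bodies and promoters differed little in their lag upon shRNA5. Gene-body peaks per promoter-proximal peak, relative to the other autosomes, then stood at 1.39 upon control shRNA, 1.31 upon shRNA5 and 0.532 upon shRNA7.

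Upon doxycycline the classes also moved unequally. Gene-body members fell from 2099 to 1297, to 0.618 against 0.745 elsewhere, a ratio of 0.830 (0.772 to 0.892). Promoter-proximal members went from 782 to 630, to 0.806 against 0.800 elsewhere, a ratio of 1.01 (0.903 to 1.12). Distant members went from 169 to 107, to 0.633 against 0.431, a ratio of 1.47 (1.14 to 1.89). In number, promoter-proximal members thus moved as promoter peaks did elsewhere, gene-body members fell further, and distant members fell less. Raw tags within gene-body members did not fall. They stood at 1.11 times those without the drug, against 1.29 times elsewhere.

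In the control list chromosome 19 had more gene-body peaks for each promoter-proximal peak than the other autosomes, and in the knock-down lists it had fewer. For each promoter-proximal member there were gene-body members at a ratio of 0.751 upon control shRNA (0.597 elsewhere), 1.13 upon shRNA5 (1.44) and 0.921 upon shRNA7 (1.78). Without doxycycline it was 2.68 (2.27 elsewhere) and with doxycycline 2.06 (2.11). Some of these orders rest on how a peak was sorted. With all annotated transcripts in place of coding ones, the control and no doxycycline ratios relative to the other autosomes went from 1.26 and 1.18 to 0.996 and 0.966, and merging peaks under 1 kb apart took that of no doxycycline to 0.986. That of doxycycline, whose interval held 1, went from 0.976 to 1.38 at a significance score of 100 or more and to 1.53 at a fold enrichment of at least 10. At a fold enrichment of at least 10 that of shRNA5 went from 0.784 to 1.31, while that of shRNA7 stayed between 0.452 and 0.659 under the alternatives tried.

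Members were longer and denser than peaks elsewhere in the shRNA7 list above all. Their median length upon shRNA7 was 3250 bp (2996 to 3477) against 1989 bp elsewhere, and their median density 55.7 tags per kb (54.8 to 57.0) against 45.5. Upon control shRNA the medians were 2159 bp against 1886 bp and 49.1 against 48.1 tags per kb. Upon shRNA5 they were 1994 bp against 1821 bp and 49.2 against 45.7 tags per kb. In the doxycycline arm length and density differed little from the rest, at 643.5 bp against 618 bp and 22.4 against 22.2 tags per kb without the drug, and 715 bp against 685 bp and 33.0 against 32.5 tags per kb with it. Because a median over peaks moves with how many weak peaks a list holds, these values compare chromosome 19 with the rest of the same list and not lists with each other.

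Members were a larger part of the strongest peaks than of all peaks in both knock-down lists and with doxycycline. The strongest 10% of each list by significance score held 8.62% of members upon control shRNA (10.3% of peaks elsewhere), 12.2% upon shRNA5 (9.89%), 13.2% upon shRNA7 (9.84%), 10.6% in uninduced (9.88%) and 13.2% in induced cells (9.72%). In the control list (6.26 to 11.8) and the no doxycycline list (9.61 to 11.7) the interval of the chromosome 19 share held the value of the other autosomes. Single members often lay across several genes: 28.3% of members upon shRNA7 touched 2 or more coding genes, against 15.7% of peaks elsewhere, while upon control shRNA the shares were 28.1% and 27.4%.

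Highest by significance score upon control shRNA were a peak of 566 tags at chr19:59060834-59067399 over CHMP2A, TRIM28 and UBE2M, one of 706 tags at chr19:39920916-39927556 over the start sites of RPS16 and SUPT5H, and one of 556 tags at chr19:10221795-10228718 over EIF3G. These are genes for a membrane-remodelling protein, a corepressor, a NEDD8-conjugating enzyme, a ribosomal protein, an elongation factor and a translation initiation factor. Upon shRNA5 the first 3 were at RPL18 (935 tags), at LONP1 and RPL36 (1904 tags) and at RPS19 (3251 tags). Upon shRNA7 they were a peak of 2275 tags over BAX, FTL and GYS1, one of 3411 tags at PSG4 and one of 1152 tags at the growth arrest gene GADD45B. Scores tied at 3100 were ordered by fold enrichment, and the 3 peaks named upon shRNA5 were chosen so. A score of 3100 or more was reached by 7 members upon shRNA5 and 10 upon shRNA7. The peak at PSG4 (chr19:43692440-43697882) had 627 tags per kb and belongs to the same PSG cluster of near-identical genes as the PSG11-AS1 window shown above, so its place is uncertain.

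In the doxycycline arm the highest members were at SNRPA and ACTMAP (385 tags), at OAZ1 (727 tags) and at EEF2 and DAPK3 (2299 tags) without the drug, and at EEF2 and DAPK3 (2824 tags), at LONP1 and RPL36 (1737 tags) and at OAZ1 (710 tags) with it. EEF2, the elongation factor that moves the ribosome along the message, and OAZ1, a regulator of polyamine synthesis, were thus shared by both lists. A score of 3100 or more was reached by 22 members without the drug and 11 with it, and ties were ordered in the same way. The widest member was 17557 bp over EEF2 and DAPK3 upon control shRNA, 25817 bp over MED29, PAF1 and SAMD4B upon shRNA5, and 36059 bp over LSR, USF2 and HAMP upon shRNA7. Without and with doxycycline it was 18578 bp and 20395 bp over PTBP1 and PLPPR3.

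**Figure D3:**
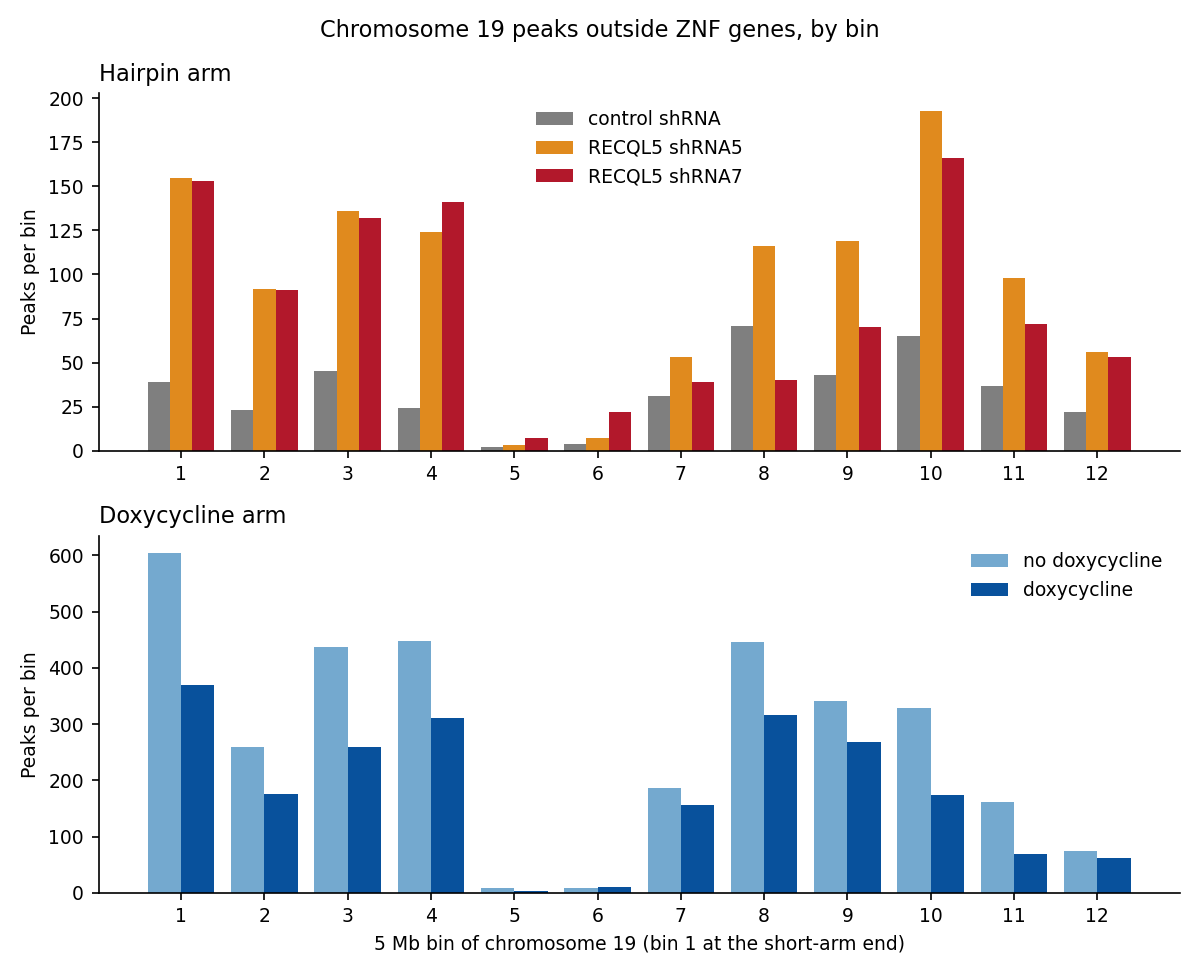
Number of chromosome 19 peaks outside ZNF genes (y axis) in each of 12 bins of 5 Mb (x axis, bin 1 at the end of the short arm), for the 3 hairpin lists (top) and the 2 doxycycline lists (bottom). In bin 8 the shRNA7 bar (40) is below the control bar (71), while shRNA5 reaches 116. In the same bin the doxycycline bars are 446 without and 316 with the drug.

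Along the chromosome, members were placed in bins of 5 Mb by their summits. Bins 5 and 6, which hold the centromere and 4 coding genes outside ZNF symbols, contained 6 to 29 members per list. The other 10 bins each held 22 to 71 members upon control shRNA. Upon shRNA7 all 10 had a fold below that of the other autosomes, upon shRNA5 9 of the 10, and upon doxycycline 7 of the 10. The low fold was therefore spread along the chromosome, but its size was not even.

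Bins 7 to 9, from 30 to 45 Mb on the long arm, stood apart in the hairpin arm when pooled. They held 145 members upon control shRNA, 288 upon shRNA5 and 149 upon shRNA7, folds of 1.99 (1.63 to 2.42) and 1.03 (0.818 to 1.29). In bins 1 to 4 the folds were 3.87 and 3.95, and in bins 10 to 12 they were 2.80 and 2.35. Upon shRNA7, bin 7 held 39 members against 31 upon control shRNA, bin 8 held 40 against 71, and bin 9 held 70 against 43. In the doxycycline arm bins 7 to 9 went from 974 to 740 members, to 0.760 (0.691 to 0.836), against 0.636 in bins 1 to 4 and 0.541 in bins 10 to 12. Left without these bins, a choice made after seeing the data, chromosome 19 had folds of 3.31 for shRNA5, 3.21 for shRNA7 and 0.615 for doxycycline. The ratios to the other autosomes were then 0.706, 0.497 and 0.852, so the lower folds remained below 1 without the stretch.

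**Figure D4:**
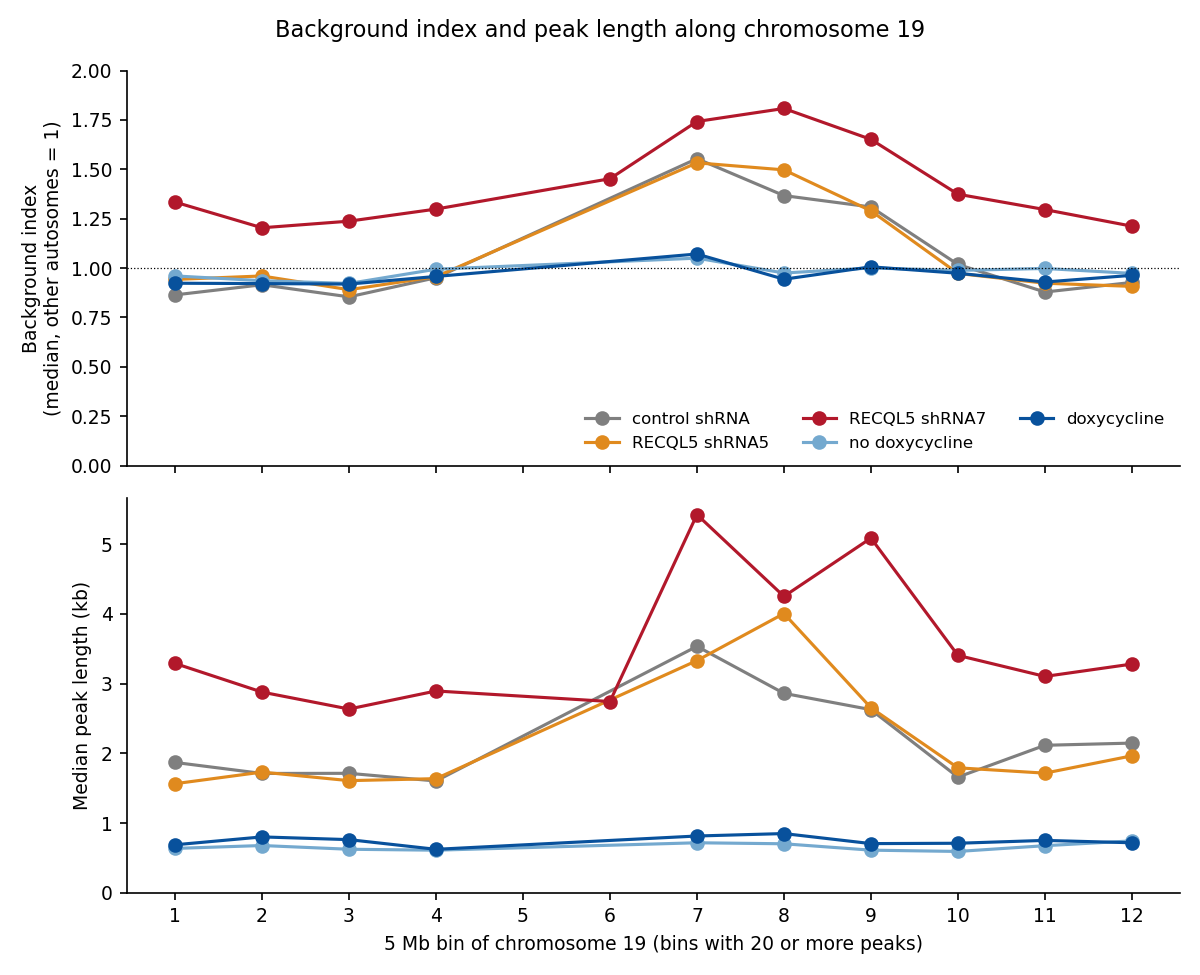
Median background index relative to the other autosomes of the same list (top) and median peak length in kb (bottom) for each 5 Mb bin with at least 20 peaks, 1 line per list. The 3 hairpin lists rise in bins 7 to 9 to between 1.29 and 1.81, and the shRNA7 line lies at 1.20 or above in all plotted bins, while both doxycycline lines stay between 0.919 and 1.07.

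Peaks of this stretch also differed in shape, in all 3 hairpin lists. Their median length was 2891 bp upon control shRNA, 3325 bp upon shRNA5 and 5065 bp upon shRNA7, against 1716, 1624 and 2940 bp in bins 1 to 4. Their median fold enrichment, the authors' ratio of peak height to local background, was 10.4, 6.68 and 6.53, against 14.4, 7.99 and 7.10 in bins 1 to 4. They were thus longer peaks with more tags per kb but a lower enrichment. Tags per kb divided by fold enrichment was taken as an index of the local background of a peak. It also depends on peak shape, because tags per kb covers the whole peak and fold enrichment its height. Upon shRNA5 its median elsewhere was 5.30 at promoters and 6.56 in gene bodies. How much of a raised index comes from longer, flatter peaks was not tested. In bins 7 to 9 the median index was 1.37 times that of the other autosomes upon control shRNA, 1.42 times upon shRNA5 and 1.72 times upon shRNA7, but 0.994 and 1.00 times without and with doxycycline.

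Such an index was rare elsewhere. Of the 5 Mb bins on other autosomes with at least 20 peaks, 0 of 57 upon control shRNA, 8 of 360 upon shRNA5 and 0 of 443 upon shRNA7 reached the lowest of bins 7 to 9. Upon shRNA7 the index was raised over the rest of the chromosome too, at 1.28 times in bins 1 to 4 and 1.32 times in bins 10 to 12, where it was 0.898 and 0.952 upon control shRNA and 0.932 and 0.943 upon shRNA5. Bins 7 to 9 thus had both the raised index and lower hairpin folds than bins 1 to 4 and 10 to 12, and the part of the index in these folds was not tested. The smallest member in bin 8 held 90 tags upon shRNA7, 67 upon control shRNA and 66 upon shRNA5, against 36 to 49 tags in bins 1 to 4 and 36 tags in bin 9 upon shRNA7.

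Genes were then scored for a promoter peak, that is, any peak touching 500 bp on either side of one of their coding TSS. Of 1188 chromosome 19 genes outside ZNF symbols with a coding transcript, 232 had a promoter peak upon control shRNA (19.5%, 17.4 to 21.9), 520 upon shRNA5 (43.8%), 510 upon shRNA7 (42.9%), 648 in uninduced (54.5%) and 555 in induced cells (46.7%). Of the 17205 genes elsewhere the shares were 17.3%, 45.1%, 54.1%, 57.4% and 48.5%. Only upon shRNA7 did chromosome 19 stand more than 5 percentage points below the rest. In all 5 lists 172 genes (14.5%) had a promoter peak, against 16.2% elsewhere, and 484 (40.7%) had none in any list, against 38.0%.

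Upon shRNA5, 294 genes (24.7%) had a promoter peak that the control list lacked, beside 27.7% of all autosomal genes, and 6 genes (0.505%) had lost one, beside 0.103%. Upon shRNA7, 330 genes (27.8%) gained one, beside 37% of all, and 52 genes (4.38%, 3.35 to 5.69) had lost one, beside 1.03%. Gains were fewer than the background upon shRNA7, and losses were more. Upon doxycycline 19 genes (1.60%) gained a promoter peak, beside 1.17%, and 112 (9.43%) lost one, beside 10%, both near the background. Both hairpins together gave 237 genes (19.9%) a promoter peak that the control lacked, against 26.7% of genes elsewhere, and these hairpin counts share the control list.

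Of the 52 genes whose promoter peak was lost upon shRNA7, 43 had their TSS in bins 7 to 9. That stretch held 263 genes, of which 73 had a promoter peak upon control shRNA, 137 upon shRNA5 and 76 upon shRNA7. In bins 1 to 4 the numbers were 80, 221 and 264 of 533 genes, with 4 genes lost upon shRNA7, and in bins 10 to 12 they were 77, 160 and 168 of 389, with 5 lost. Losses upon shRNA7 were therefore mostly of genes in the stretch with the raised index. Of the 52 genes, 49 had a promoter peak upon shRNA5 and 49 had one in both doxycycline lists. Their promoter peaks upon control shRNA held 42 to 1035 tags with a median of 198, where the smallest control member held 39 tags. With a significance score of at least 100 in each list, 33 genes were lost upon shRNA7.

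The lost genes with the most control tags, a choice made after their values were seen, were WDR62, a spindle pole protein, MED29 and PAF1, which share a peak, and UBA2, a subunit of the SUMO-activating enzyme. WDR62 had 1035 tags upon control shRNA, 3418 upon shRNA5, no peak upon shRNA7, 335 without doxycycline and 1027 with it. UBA2 had 893, 2407, no peak, 377 and 2318 tags. KMT2B, a histone H3 lysine methyltransferase, had 685, 213, no peak, 423 and 448 tags. Each was occupied in the other 4 lists. Tags are raw counts summed over whole peaks, so they rise with the depth of the library and the length of the peak and are set side by side here only to show which lists hold a peak.

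**Figure D5:**
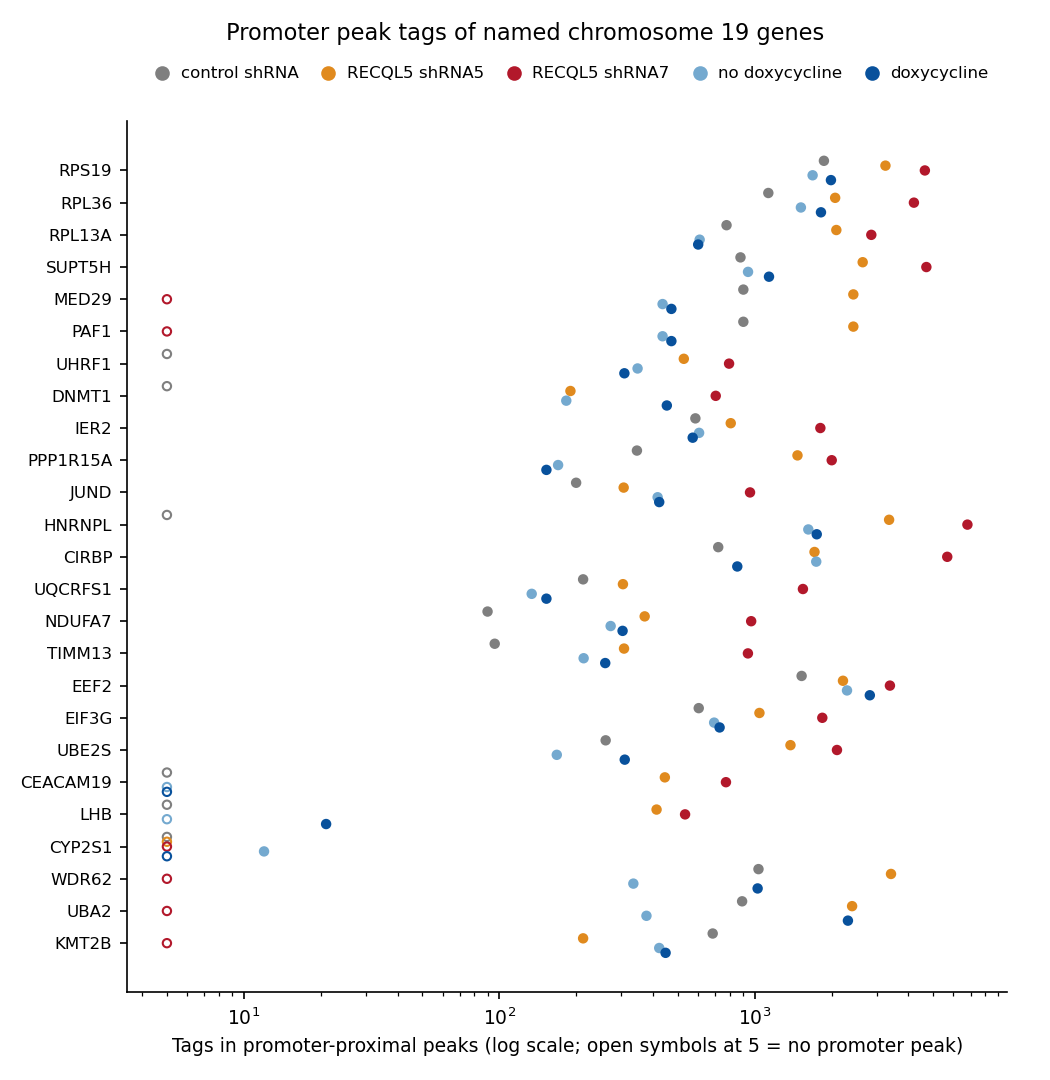
Tags in promoter-proximal peaks (x axis, log scale) of genes named from the gene groups and of the lost genes with the most control tags, 1 row per gene and 1 colour per list, with open symbols for no promoter peak. RPS19, RPL36 and RPL13A have filled symbols in all 5 lists, MED29, PAF1, WDR62, UBA2 and KMT2B lack one upon shRNA7 only, and CEACAM19, LHB and CYP2S1 lack one in 3, 2 and 4 lists.

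Genes were grouped by role, and the groups were listed by hand, so their counts stand beside those over all genes and carry no test. Of the 1188 genes, 19.5%, 43.8% and 42.9% had a promoter peak upon control shRNA, shRNA5 and shRNA7. The 13 listed ribosomal protein genes all had a promoter peak in all 5 lists. RPS19 held 1867, 3251, 4638, 1686 and 1989 tags, where the hairpin lists (control first, then shRNA5 and shRNA7) come before the uninduced and induced T-REx cells, as in the series of values below. RPL36 held 1131, 2066, 4202, 1517 and 1818, and RPL13A held 776, 2088, 2862, 609 and 601 tags. No other group had a promoter peak on all its genes in all 5 lists, which leaves no gain or loss to count. Gene-body peaks were found on 7 of the 13 upon control shRNA, 2 upon shRNA5, 1 upon shRNA7 and 5 in each doxycycline list.

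Of 18 genes for the transcription and elongation machinery, 7 had a promoter peak upon control shRNA, 15 upon shRNA5, 12 upon shRNA7 and 17 in each doxycycline list. Upon shRNA7, 9 of the 18 gained one and 4 lost one (MED29, PAF1, KMT2B and the RNAPII subunit gene POLR2I), beside 37% and 1.03% of all autosomal genes. The 4 lost genes lie in bin 8, within the stretch that held most losses. SUPT5H, a subunit of the pausing and elongation factor DSIF, held 880, 2648, 4701, 942 and 1138 tags. MED29, of the Mediator complex, and PAF1, of the elongation complex named after it, held 903 and 2434 tags upon control shRNA and shRNA5, had no peak upon shRNA7, and held 436 and 472 without and with doxycycline. SUPT5H, which lies in bin 8 as they do, kept a promoter peak. Its start site neighbours that of RPS16, and upon control shRNA a peak of 706 tags touched both promoters. RPS16 had a promoter peak upon shRNA7 too (2852 tags), so the kept peak cannot be assigned to SUPT5H alone.

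Of 22 RNA processing genes, 13, 21, 15, 22 and 22 had a promoter peak in the same order of lists. Upon shRNA7, 7 gained one and 5 lost one (SNRPA, HNRNPUL1, U2AF2, SNRNP70 and DDX39A), beside 37% and 1.03% of all autosomal genes. HNRNPL, a splicing regulator, had no promoter peak upon control shRNA and 3360, 6807, 1622 and 1750 tags in the other lists. CIRBP, the cold-inducible RNA-binding protein, held 720, 1715, 5675, 1742 and 855 tags.

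Of 11 DNA repair and replication genes, 4 had a promoter peak upon control shRNA, 11 upon shRNA5, 9 upon shRNA7, 11 in uninduced and 10 in induced cells. Upon shRNA5 7 gained one and upon shRNA7 6, beside 27.7% and 37% of all autosomal genes. UHRF1 and DNMT1, which copy DNA methylation after replication, had none upon control shRNA. UHRF1 held 528, 794, 348 and 309 tags in the other lists and DNMT1 held 190, 704, 183 and 453. ERCC2 was the gene of this group lost upon shRNA7, beside 1.03% of all autosomal genes.

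Of 10 immediate early and growth arrest genes, 7, 8, 9, 10 and 9 had a promoter peak. IER2 held 586, 806, 1808, 606 and 572 tags, PPP1R15A, a stress-induced phosphatase subunit, held 346, 1471, 2003, 170 and 153, and JUND, an AP-1 component, held 200, 307, 959, 417 and 423. With either hairpin 0 of the 10 lost a promoter peak, beside 0.103% (shRNA5) and 1.03% (shRNA7) of all autosomal genes, so these counts do not set the group apart. Of 14 genes for the mitochondrial respiratory chain and protein import, 9, 12, 12, 14 and 14 had a promoter peak. Upon shRNA7, 4 of the 14 gained one and 1 lost one (TIMM50), beside 37% and 1.03% of all autosomal genes. UQCRFS1, the Rieske protein of complex III, held 213, 305, 1545, 134 and 153 tags, NDUFA7 of complex I held 90, 371, 969, 273 and 304, and TIMM13 held 96, 308, 941, 214 and 260. The neighbouring ribosomal protein gene RPS28 had the same promoter tags as NDUFA7 in every list, so these tags cannot be assigned to NDUFA7 alone.

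Translation and protein turnover genes were occupied in most lists, with a promoter peak on 10, 11, 9, 12 and 12 of 12 genes. SARS2, PSMC4 and PSMD8 were the 3 genes lost upon shRNA7, each in bin 8 or 9, beside 1.03% of all autosomal genes. EEF2 held 1527, 2217, 3385, 2299 and 2824 tags, EIF3G held 604, 1044, 1840, 694 and 729, and UBE2S, a ubiquitin-conjugating enzyme of the anaphase-promoting complex, held 261, 1381, 2100, 168 and 310.

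The clusters of tissue-restricted genes were nearly empty. Of 106 kallikrein, PSG, CEACAM, receptor, olfactory, cytochrome P450 and related genes, 103 had no promoter peak in any list, against 484 of all 1188 genes. The exceptions were CEACAM19, with 445 and 772 tags upon shRNA5 and shRNA7 only, LHB, with 413, 534 and 21 tags upon shRNA5, shRNA7 and doxycycline, and CYP2S1, with 12 tags without doxycycline. Gene-body peaks touched 2, 6, 9, 11 and 6 of the 106 genes.

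The genes with a promoter peak upon both hairpins but not upon control shRNA, ranked by shRNA7 tags, were led by neighbours that share peaks. One peak of 6807 tags upon shRNA7 (chr19:39312957-39344118) and 3360 tags upon shRNA5 covered ECH1, a fatty acid oxidation enzyme, and HNRNPL as well as a further gene model without a symbol. CD79A, a B cell receptor component, was next with 3251 and 4638 tags, but these are the tags of the RPS19 peak, whose edge reached within 500 bp of the CD79A start upon both hairpins. The peak of RPS19 was present upon control shRNA with 1867 tags without reaching it. ERF, a transcriptional repressor, had 703 and 3488 tags, with 106 and 45 without and with doxycycline. A promoter could thus be scored as gained where the peak of a neighbour was longer.

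Long genes carried the most gene-body members. SAE1, the partner of UBA2 in the SUMO-activating enzyme, had 2, 17, 13, 19 and 30 gene-body peaks over 97.4 kb, and DNMT1 had 0, 10, 9, 39 and 13 over 97.9 kb. DPY19L3 had 0, 2, 9, 2 and 4, and SUGP2 had 0, 4, 5, 16 and 7. With doxycycline DNMT1 had fewer gene-body peaks but more tags in them (2243 against 839), while SAE1 had more peaks. Of the 5 genes with the most in the no doxycycline list, ACTN4, an actin crosslinker, had 3, 5, 0, 45 and 34, UHRF1 had 0, 5, 3, 29 and 22, SAFB had 0, 8, 4, 28 and 22, and HNRNPUL1 had 5, 1, 0, 27 and 19. ACTN4 and HNRNPUL1 lie in bins 8 and 9, and upon shRNA7 neither had a promoter or gene-body peak.

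Control members recurred less in the knock-down lists than control peaks elsewhere. Of control members, 93.6% (90.8 to 95.6) were met by a shRNA5 peak and 70.4% (65.8 to 74.7) by a shRNA7 peak, sharing at least 1 bp, against 97.9% and 90.6% elsewhere. The control members that shRNA7 did not meet were no weaker, with a median significance score of 96.5 against 91.6 for those it met. The same order held elsewhere, at 90.9 against 86.5. From the other side, shRNA5 met 63.4% of shRNA7 members and 51.7% of shRNA7 peaks elsewhere, and shRNA7 met 75.2% of shRNA5 members against 85.7%. In the doxycycline arm 72.6% (70.7 to 74.5) of doxycycline members were met by a no doxycycline peak, against 60.9% elsewhere.

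Over all lists, 59.4% of control members were met in the other 4 lists, against 79.5% of control peaks elsewhere. Of shRNA7 members, 15.2% had no partner in any other list, against 32.5% elsewhere, and 18.4% had a partner in all the others, against 10.5%. A smaller share of shRNA7 peaks on chromosome 19 was thus held by shRNA7 alone. A partner needs only 1 shared bp, and the lists cover more of chromosome 19 than of the other autosomes. No doxycycline peaks covered 5.81% of it, against 1.39% elsewhere, and shRNA5 peaks 6.30%, against 2.13%. The part of this coverage in the shares met was not tested. Without doxycycline 24.5% of members had no partner, against 29.3%, and with it 14.6%, against 18.2%.

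The bases around members were poorer in A and T than around peaks elsewhere. In 2 kb centred on the summit the median AT content of members was 44.5% upon control shRNA (49.4% elsewhere), 45.4% upon shRNA5 (54.2%), 45.1% upon shRNA7 (56.3%), 45.4% in uninduced (52.4%) and 45.5% in induced cells (53.9%). Members hardly differed between lists, while the peaks elsewhere were richest in A and T upon shRNA7. By class, members upon shRNA7 went from 41.0% at promoters to 47.9% in gene bodies and 54.0% far from genes, and peaks elsewhere from 44.8% to 60.1% and 54.9%. The gap was therefore widest in gene bodies. The CpG ratio (observed over expected) of promoter-proximal members was 0.632, 0.618, 0.613, 0.603 and 0.624 in the 5 lists, against 0.685 to 0.702 elsewhere, and that of gene-body members was 0.295 to 0.326, against 0.223 to 0.266.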

How the data were processed

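RNAPII ChIP-seq peak lists of 5 libraries were used, and the 4 IgG libraries served only as the background of the peak calls. Per the labels and the study's methods, the authors processed reads with CASAVA 1.8, aligned them with Bowtie 0.12.7 to hg19 (GRCh37) and called peaks with MACS 1.4.2, each list on its own. The deposited values are raw tag counts per peak, not scaled to depth, a significance score (-10 times log10 of the p-value), the fold enrichment as a ratio over local background, and the FDR in percent. The study's methods give read totals only as a range per arm, similar within each arm.

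Members and gene lists were chosen with earlier results of these data known. Peaks were sorted by GENCODE 44 (lifted to GRCh37), with any touching base deciding the class. Peak numbers were compared as ratios with 95% intervals, from Wilson bounds turned into odds, log-normal for ratios of ratios and order statistics for medians. Shares carry Wilson intervals. All intervals cover counting error only. Overlap of peaks, merging and the log-normal interval were tested on simulated data, and the other intervals were not. Python 3.11.15, numpy 2.4.6, pandas 2.3.3, scipy 1.17.1 and matplotlib 3.10.9 were used. With 1 library per condition no test between conditions was made.

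Text names the 3 highest-scoring members and the widest member of each list, the 3 genes of each gene list with the most promoter tags, the 5 genes with the most gene-body peaks upon shRNA7 and without doxycycline, and the 5 genes gained with both hairpins that hold the most shRNA7 tags. Lost genes outside this rule were chosen after their values were seen. Sequences are those of the densest member of a class, passing over windows that touch an annotated untranslated region. Alternatives were other peak thresholds, merging, equal list lengths, other exclusions, class rules, annotations, overlaps, windows and bin edges. Some items that this rule selects are not reported here.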

Additional observations from a re-analysis of the deposited data

How the results depend on the processing

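The lower fold of chromosome 19 relative to the other autosomes kept its direction for both hairpins under each alternative tried, while the fold itself did not. Of 224 alternative values, 121 stayed close to the reported one (within its interval or, for numbers of genes or bins, of similar size), 91 moved further and 12 changed direction, counting only those whose reported interval left out equality, and apart from settings that by construction count fewer peaks or genes the cause was not tested. A wider ZNF exclusion and bins shifted by 2.5 Mb moved none of their 16 and 3 values. Values that moved or turned follow. Where the significance score had to reach 100, the fold on chromosome 19 was 0.757 (doxycycline), 3.88 (shRNA5) and 3.66 (shRNA7). The percent of autosomal peaks on chromosome 19 was 5.60 (shRNA5), 3.66 (shRNA7), 7.68 (doxycycline) and 8.26 (no doxycycline). For the gene-body to promoter ratio relative to the other autosomes, the value was 0.615 (shRNA7), 1.38 (doxycycline) and 1.86 (no doxycycline). The median tags per kb relative to the other autosomes was 1.19 (shRNA7), 0.985 (doxycycline) and 0.927 (no doxycycline). For the AT difference in percentage points, the value was -7.05 (shRNA5), -9.05 (shRNA7), -4.70 (doxycycline) and -3.55 (no doxycycline). The percent of members met was 78.2 (doxycycline by no doxycycline). For the number of genes that lost a promoter peak, the value was 3 (shRNA5) and 33 (shRNA7). With a fold enrichment of at least 10, the fold on chromosome 19 was 0.365 (doxycycline), 0.994 (shRNA5) and 0.803 (shRNA7). For its ratio to the other autosomes, the value was 1.07 (doxycycline) and 0.749 (shRNA5). The percent of autosomal peaks on chromosome 19 was 5.97 (shRNA5) and 8.07 (doxycycline). For the gene-body to promoter ratio relative to the other autosomes, the value was 1.31 (shRNA5) and 1.53 (doxycycline). The median tags per kb relative to the other autosomes was 1.02 (shRNA5), 1.20 (shRNA7) and 0.972 (doxycycline). For the AT difference in percentage points, the value was -4.05 (shRNA5), -6 (shRNA7), -4.40 (doxycycline) and -6.45 (no doxycycline). The percent of members met was 68.8 (control shRNA by shRNA5), 60.5 (control shRNA by shRNA7) and 86.4 (doxycycline by no doxycycline). With lists cut to equal length, the fold on chromosome 19 was 0.871 (doxycycline), 0.734 (shRNA5) and 0.495 (shRNA7). This cut removes any rise over all autosomes by construction. The 2 changes of direction under it, in the folds of shRNA5 and shRNA7, therefore do not bear on the rise. Its ratio to the other autosomes was 0.713 (shRNA5) and 0.476 (shRNA7). For the percent of autosomal peaks on chromosome 19, the value was 6.004 (shRNA5), 4.09 (shRNA7) and 7.80 (no doxycycline). The gene-body to promoter ratio relative to the other autosomes was 0.935 (shRNA5), 0.659 (shRNA7) and 1.36 (no doxycycline). For the median tags per kb relative to the other autosomes, the value was 1.05 (shRNA5), 1.17 (shRNA7) and 0.993 (no doxycycline). The AT difference in percentage points was -5.55 (shRNA5), -7.30 (shRNA7) and -6.10 (no doxycycline). For the percent of members met, the value was 65.02 (control shRNA by shRNA5), 41.4 (control shRNA by shRNA7) and 66.6 (doxycycline by no doxycycline). With an FDR of at most 5%, the fold on chromosome 19 was 1.77 (shRNA7). For the percent of autosomal peaks on chromosome 19, the value was 3.53 (shRNA7). The gene-body to promoter ratio relative to the other autosomes was 0.594 (shRNA7). For the AT difference in percentage points, the value was -9.50 (shRNA7). With peaks under 1 kb apart merged, the fold on chromosome 19 was 2.53 (shRNA5). For the percent of autosomal peaks on chromosome 19, the value was 5.90 (doxycycline) and 6.15 (no doxycycline). The gene-body to promoter ratio relative to the other autosomes was 0.986 (no doxycycline). For the median tags per kb relative to the other autosomes, the value was 0.9997 (doxycycline) and 0.974 (no doxycycline). The AT difference in percentage points was -10.1 (shRNA7). With the peak itself as window, the AT difference in percentage points was -10.8 (shRNA7) and -6.19 (no doxycycline). Sorted by summit alone, the gene-body to promoter ratio relative to the other autosomes was 0.896 (shRNA5), 0.632 (shRNA7), 1.61 (control shRNA), 1.09 (doxycycline) and 1.32 (no doxycycline). Without the exclusion of ZNF genes, the fold on chromosome 19 was 2.87 (shRNA7). Its ratio to the other autosomes was 0.444 (shRNA7). For the percent of autosomal peaks on chromosome 19, the value was 6.48 (shRNA5), 4.66 (shRNA7), 9.91 (control shRNA), 8.07 (doxycycline) and 8.45 (no doxycycline). The gene-body to promoter ratio relative to the other autosomes was 0.608 (shRNA7) and 1.07 (no doxycycline). With all annotated transcripts, the gene-body to promoter ratio relative to the other autosomes was 0.996 (control shRNA), 0.833 (doxycycline) and 0.966 (no doxycycline). With a TSS window of 1 kb, the gene-body to promoter ratio relative to the other autosomes was 0.884 (doxycycline) and 1.05 (no doxycycline). Without bins 7 to 9, a choice made after seeing the data, the fold on chromosome 19 was 0.615 (doxycycline), 3.31 (shRNA5) and 3.21 (shRNA7). Its ratio to the other autosomes was 0.852 (doxycycline), 0.706 (shRNA5) and 0.497 (shRNA7). With an overlap of at least 50% of both peaks, the percent of members met was 50.5 (control shRNA by shRNA5), 16.3 (control shRNA by shRNA7) and 41.6 (doxycycline by no doxycycline). With summits within 500 bp, the percent of members met was 59.4 (control shRNA by shRNA5), 40.1 (control shRNA by shRNA7) and 55.1 (doxycycline by no doxycycline).

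No paired analysis was possible because every condition was sequenced as 1 library, and for the same reason no library was left out in turn. Depth is described by the study's methods as similar within each arm, but exact totals per library and tags outside peaks are not in the lists. The shared control list, the shared IgG background of the doxycycline lists and the local background of the hairpin libraries cannot be told apart from the condition.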
